A study of Homo sapiens with 16 samples.

Results

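The clustered protocadherin genes were examined in RNA sequencing of H9 human embryonic stem cells carried through cortical neural differentiation with or without an inhibitor of O-GlcNAc removal. The genes were chosen by symbol alone: PCDHA, PCDHAC, PCDHB, PCDHGA, PCDHGB or PCDHGC followed by a number. Of 54 such symbols in the names table, 52 had a row in the counts, and PCDHA14, annotated as a transcribed pseudogene, was set aside. This left 51 protein-coding genes of the 57736 in the counts: 15 of the alpha cluster, 15 of the beta cluster and 21 of the gamma cluster. PCDHB16 and PCDHGB5 were not analysed here. All 51 genes passed the filter on low counts. On chromosome 5 of GRCh37 the alpha cluster spans chr5:140165721-140391932, the beta cluster chr5:140430959-140628933 and the gamma cluster chr5:140710081-140892544, all on the plus strand.

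Clustered protocadherins are cell adhesion proteins of the cadherin superfamily, best known from neurons. Each neuron switches on its own small combination of them, each protein binds its own kind on a facing membrane, and the combination serves as a surface identity by which branches of the same cell recognise and avoid each other. Every variable exon has its own promoter. In the alpha and gamma clusters a variable exon, which encodes the cadherin repeats and the membrane span, is spliced to constant exons that encode a shared cytoplasmic end. The beta genes have no constant exon. The insulator protein CTCF and cohesin bring a promoter into contact with a distant enhancer, and DNA methylation of a promoter keeps it silent. The last genes of the alpha and gamma clusters, PCDHAC1, PCDHAC2, PCDHGC3, PCDHGC4 and PCDHGC5, are called C-type and are used more evenly across neurons than the others.

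The groups follow the sample titles and the sample descriptions. A separate treatment label disagrees with them for 8 libraries: it names every replicate 1 as control and every replicate 2 as TMG. H9 is an established human embryonic stem cell line, so all libraries come from 1 genetic background. Neural fate was induced by dual SMAD inhibition, that is, by blocking BMP signalling with LDN-193189 and TGF-beta signalling with SB-431542. Cells were collected on day 0 (D0, undifferentiated), D12, D30 and D70. At each stage control cells given the solvent DMSO and cells given Thiamet-G (TMG) at 40 uM were sequenced, with 2 libraries a group and 16 in all. TMG blocks O-GlcNAcase, the enzyme that takes O-GlcNAc off proteins, and was present throughout, also in the undifferentiated cells. The cultures are mixed populations, so fewer cells of a type and less RNA per cell cannot be told apart.

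The 16 libraries held between 10334908 and 19836878 counts each, of which the 51 genes took 0.0548% to 0.122% of them, with a median of 104 to 283 counts a gene in a library. Stem cell markers summed to 3228 to 3697 CPM (counts scaled to library size) at D0 and to 1.90 to 3.47 CPM at D70, and PAX6, a transcription factor of neural progenitors, was at 3.96 and 14.6 CPM at D0 and at 573.5 and 585 CPM at D12 in control cells. SOX1, another neural progenitor factor, was at 0 to 0.376 CPM in every library, near the limit of detection. Libraries of D70 stood apart by replicate: 9 mesenchymal markers summed to 7727 and 4073 CPM in replicate 1 of control and TMG, and to 45740 and 59860 CPM in replicate 2. Replicate 2 of TMG at D30 was also high, at 30320 CPM against 4565 to 5831 CPM in the other libraries of D30. Pan-neuronal markers at D70 summed to 1433 and 868.5 CPM in the control libraries and to 1595 and 299.6 CPM in the TMG libraries. Counts of calls and fold changes that rest on these libraries are followed by values without them for the main comparisons, and the part of these cells in the results was not tested.

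Reads of the constant exons cannot be assigned to 1 member. In the annotation, 2866 exonic bases are common to all alpha genes and 2177 to all gamma genes, and shared bases make up a median of 46.6% of an alpha gene, 43.8% of a gamma gene and 0% of a beta gene. The counting software divided such reads between members, so the level of a single alpha or gamma gene is an estimate that leans on its variable exon. The kit does not record strand. A gene on the opposite strand overlaps exons of 11 of 15 alpha genes, 14 of 15 beta genes and 1 of 21 gamma genes, and reads of the overlapping parts cannot be told apart.

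Promoter sequences are shown because each member is switched on from its own start, and because most of these promoters carry a short conserved element with the core CGCT. RefSeq promoter sequences (from its GRCh38.p14 tables) were at hand for 45 of the 51 genes, and 44 of them were found exactly once on GRCh37, whose coordinates are given. The following lines give the 100 bases before the annotated start, 5′ to 3′ on the plus strand, with each CGCT in capitals. They show the leading gamma gene, a gamma gene that fell, a C-type gene of each of the gamma and alpha clusters, the beta gene with the largest rise and the alpha gene that rose.
PCDHGB6, chr5:140787488-140787587: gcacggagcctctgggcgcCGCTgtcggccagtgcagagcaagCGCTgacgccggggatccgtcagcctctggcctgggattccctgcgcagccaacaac
PCDHGA5, chr5:140743629-140743728: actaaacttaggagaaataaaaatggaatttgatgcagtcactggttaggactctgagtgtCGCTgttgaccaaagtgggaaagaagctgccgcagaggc
PCDHGC3, chr5:140855433-140855532: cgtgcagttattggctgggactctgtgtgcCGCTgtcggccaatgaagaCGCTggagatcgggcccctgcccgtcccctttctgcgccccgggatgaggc
PCDHAC2, chr5:140345961-140346060: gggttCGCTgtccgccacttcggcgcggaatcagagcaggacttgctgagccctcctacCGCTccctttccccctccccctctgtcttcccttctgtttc
PCDHB10, chr5:140571826-140571925: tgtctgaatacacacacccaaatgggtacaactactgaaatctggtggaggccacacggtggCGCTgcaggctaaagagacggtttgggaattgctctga
PCDHA6, chr5:140207445-140207544: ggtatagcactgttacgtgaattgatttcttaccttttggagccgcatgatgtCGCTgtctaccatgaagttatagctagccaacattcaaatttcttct

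CGCT stood on the gene's own strand within these 100 bases in 42 of 45 member promoters (93.3%), against 28.1% of 27305 promoters in the table. Read on either strand, as CGCT or its reverse complement AGCG, it was in 42 of 45 member promoters and in 44.7% of all promoters. By cluster it was in 12 of 13 alpha, 12 of 13 beta and 18 of 19 gamma promoters, and PCDHA9, PCDHB8 and PCDHGB2 were without it in this window. The CGCT nearest the start lay 8 to 95 bases before it, with a median of 47.5. The letters around it differed between clusters. The words of 8 letters found in most beta promoters over the whole 300-base sequence, read on either strand, were GTGGCGCT and the overlapping GGTGGCGC (each in 12 of 13, against 1.18% and 2.27% of all promoters), and neither was in an alpha or gamma promoter of the table. The corresponding words were ATGTCGCT and the overlapping GATGTCGC in 9 of 13 alpha promoters each (0.245% and 0.359% of all) and GCCGCTGT in 10 of 19 gamma promoters (1.60% of all), each in no promoter of the other clusters. The words overlap CGCT or its first letters and were picked as the most shared, so these counts are a description.

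Levels within the family were uneven. Over all 16 libraries and per kilobase of coding sequence, PCDHGB6 was highest at a mean of 54.9 CPM per kb, then PCDHB2 at 39.1, PCDHGC3 at 21.15, PCDHGA10 at 15.45 and PCDHA6 at 12.3 CPM per kb. At D0 in control cells the order was different, with PCDHB2 at 19.3, PCDHGB6 at 13.7, PCDHA11 at 13.2, PCDHGA10 at 11.5 and PCDHGC3 at 10.9 CPM per kb. The first genes of each cluster were among the lowest: PCDHA1 ranged over the 16 libraries from 0.094 to 2.37 CPM, PCDHB1 from 0 to 4.95 CPM and PCDHGA1 from 0.486 to 1.86 CPM, levels without correction for length.

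**Figure D1:**
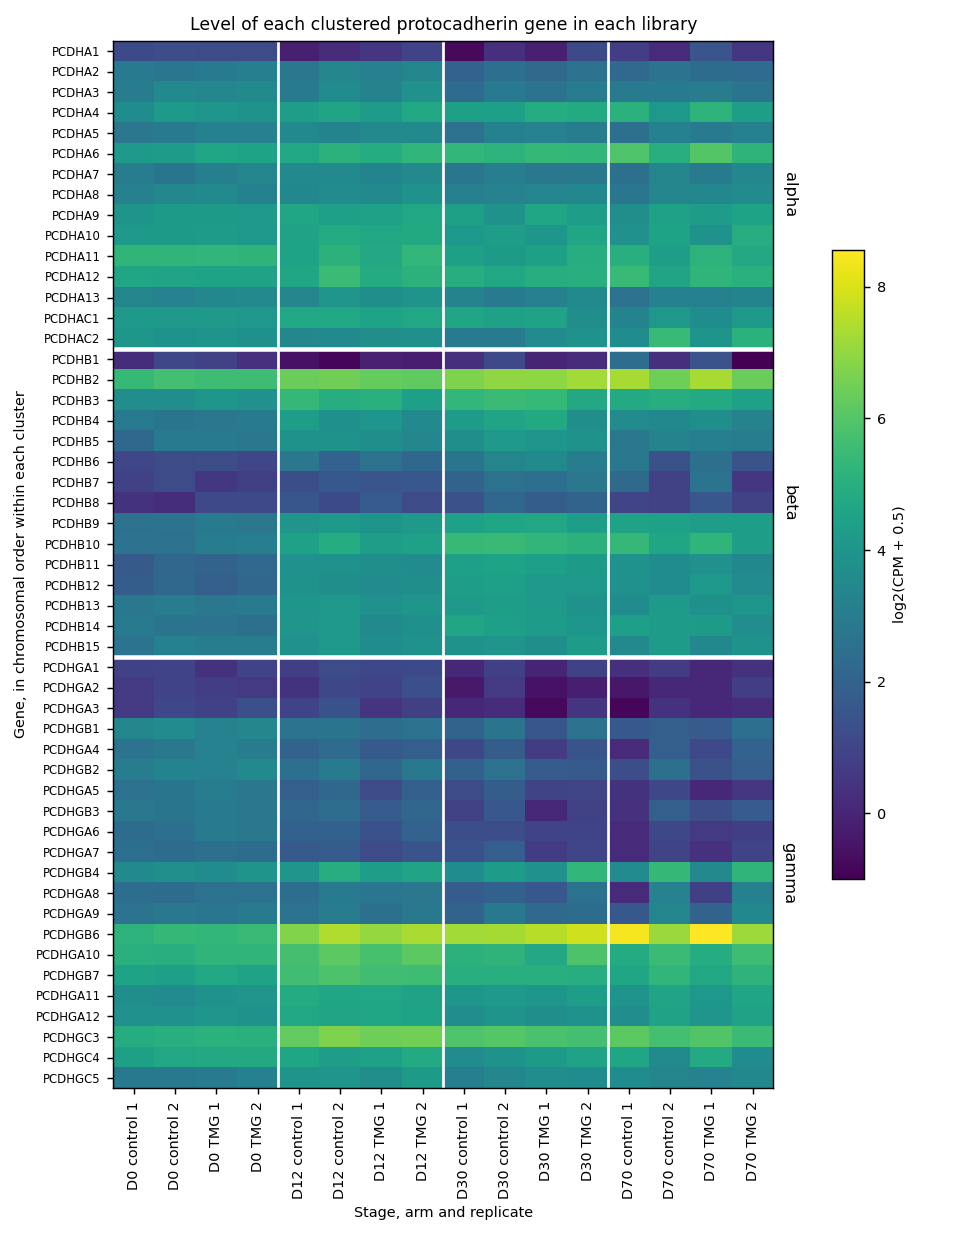
Heat map of log2(CPM + 0.5) for the 51 genes (rows, in chromosomal order, with white lines between the alpha, beta and gamma clusters) in the 16 libraries (columns, with white lines between stages). PCDHGB6 and PCDHB2 form the bright rows, the beta rows are brighter from D12 on, and PCDHGA1 to PCDHGA7 grow darker towards D70.

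Summed over its members, the beta cluster rose most on neural induction. In control cells beta genes summed to 106 and 124 CPM at D0, 281 and 281.5 at D12, 348 and 397 at D30, and 355 and 267 at D70. The D12 sum was 2.45 times that of D0 (log2 ratio 1.29, SD 0.16, n = 2 a group). Marker sums moved over the same step in control cells. Mesenchymal markers went from 168.8 and 180.4 CPM at D0 to 1157 and 1317 CPM at D12. Neural progenitor markers went from 572.7 and 872 to 1851 and 1744 CPM, and pan-neuronal markers from 344.2 and 384.8 to 577 and 938.7. Stem cell markers fell from 3567 and 3228 to 541 and 589.8 CPM, and cycling cell markers from 1609 and 1488 to 805.5 and 694. Astroglial markers fell from 66.8 and 41.69 to 12.53 and 16.97 CPM. The part of any of these in the rise was not tested. The gamma cluster summed to 247 and 260.3 CPM at D0, 438 and 567 at D12, 361 and 403 at D30, and 556 and 424 at D70, which makes D12 1.98 times D0 (log2 ratio 0.99, SD 0.27). The alpha cluster moved least, at 207 and 215 CPM at D0, 232 and 295 at D12, 218.5 and 208 at D30, and 252 and 245 at D70, with D12 at 1.25 times D0 (log2 ratio 0.32, SD 0.25). For each cluster the 2 libraries of D12 lay above the 2 of D0. The log2 ratio of D70 to D0 was 0.24 for alpha, 1.44 for beta and 0.95 for gamma. With the most abundant member of the cluster left out it was 0.07 for alpha and 0.20 for gamma. Without replicate 2 of the D70 control it was 0.26, 1.63 and 1.13, and without replicate 1 it was 0.22, 1.22 and 0.74. No test was run on these sums.

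**Figure D2:**
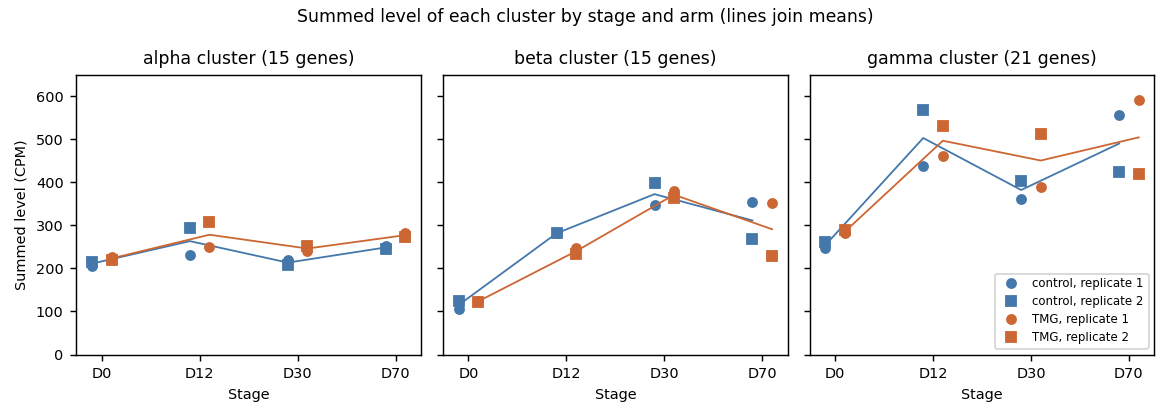
Summed level of the alpha (15 genes), beta (15) and gamma (21) clusters in CPM by stage. Each point is 1 library (circles replicate 1, squares replicate 2; blue control, orange TMG) and lines join the means of 2 libraries; beta climbs from 106 and 124 CPM at D0 to 348 and 397 at D30 in control cells, while alpha stays between 207 and 295.

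The first question of the design is how expression changes from stage to stage, here in control cells. Between D0 and D12, 15 of the 51 genes rose and 0 fell at a false discovery rate of 5% in edgeR, while 6.97% of all 24249 genes tested rose and 9.71% fell. The 15 were 10 of the 15 beta genes (PCDHB3, PCDHB4, PCDHB5 and PCDHB9 to PCDHB15) and 5 of the 21 gamma genes (PCDHGB6, PCDHGB7, PCDHGA11, PCDHGC3 and PCDHGC5), and 0 alpha genes. At an unadjusted p under 0.05 it was 21 higher and 1 lower (14.4% and 17.6% of all genes), and DESeq2 called 18 and 0 (9.29% and 12.6%). The median log2 fold change was 1.35 over beta, 0.45 over alpha and 0.16 over gamma genes, against 0.00 over all genes tested. Fits without 1 library are given here and below with no share of all genes, so their counts cannot be set against a general rate. The count of risen genes was 8 without replicate 1 of the D0 control, 9 without either D12 control library and 10 without replicate 2 of the D0 control.

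PCDHB10 showed the largest rise among those called, from 5.75 and 5.53 CPM at D0 to 21.8 and 29.6 CPM at D12 (log2 fold change 2.19, SE 0.33, adjusted p = 0.0025). The 2 stages did not overlap. PCDHB11 went from 2.78 and 3.99 CPM to 13.8 and 14.1 CPM (2.04, SE 0.26, adjusted p = 0.00122). PCDHB12 went from 3.03 and 4.13 CPM to 14.4 and 13.2 CPM (1.95, SE 0.25, adjusted p = 0.00147). The libraries of D12 lay above those of D0 for each of these neighbouring genes, which encode single-exon receptors with no shared cytoplasmic end. PCDHB2, the most abundant beta gene, stood at 41.6 and 51.0 CPM at D0 and 85.3 and 88.9 CPM at D12, a log2 difference of 0.91 (SE 0.32) whose adjusted p was 0.072. PCDHB3, next in level among beta genes, went from 12.23 and 12.24 CPM to 40.45 and 30.71 CPM (1.54, SE 0.28, adjusted p = 0.00618). PCDHB1, which lies apart from the other beta genes at the start of the cluster, was the only beta gene with a lower value at D12, at 0.197 and 0.0548 CPM against 0.68 and 1.54 CPM (adjusted p = 0.167).

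In the gamma cluster PCDHGB6 was at 35.8 and 40.8 CPM at D0 and at 106 and 169 CPM at D12 (log2 fold change 1.84, SE 0.48, adjusted p = 0.026). That call is lost when any 1 of the 4 libraries is left out (adjusted p from 0.0536 to 0.142) or with no filter on low counts (adjusted p = 0.0637). PCDHGC3, the C-type gene with the highest level and known for its part in dendrite growth of cortical neurons, was at 29.97 and 31.0 CPM at D0 and at 77.0 and 103 CPM at D12 (1.56, SE 0.21, adjusted p = 0.0016). PCDHGB7 was at 22.8 and 20.6 CPM and then at 49.5 and 58.1 CPM (1.31, SE 0.23, adjusted p = 0.00504). PCDHGC5 was at 6.86 and 6.79 CPM and then at 15.1 and 15.9 CPM (1.18, SE 0.25, adjusted p = 0.012). The call of PCDHGC5 is also lost when any 1 of the 4 libraries is left out (adjusted p from 0.0604 to 0.0715), as is that of PCDHGA11 (0.0573 to 0.127), while PCDHGC3 and PCDHGB7 were called in each of these 4 fits. Every library of D12 lay above every library of D0 for PCDHGB6, PCDHGC3, PCDHGB7 and PCDHGC5.

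The other C-type genes did not pass. PCDHGC4, needed for survival of many interneurons in mice, stood at 21.2 and 25.6 CPM at D0 and 24.8 and 20.04 CPM at D12 (log2 difference -0.06, SE 0.40). PCDHAC1 was at 17.3 and 17.6 CPM, then at 25.3 and 25.7 CPM (0.55, SE 0.32, adjusted p = 0.26). PCDHAC2, known from mice for spacing the axons of serotonergic neurons, was at 16.4 and 14.1 CPM, then at 10.2 and 11.3 CPM (-0.50, SE 0.49, adjusted p = 0.518). Among the 3 highest alpha genes, PCDHA6 was at 17.7 and 18.5 CPM at D0 and 25.8 and 34.5 at D12, PCDHA12 at 23.97 and 23.3 and then 24.6 and 44.95, and PCDHA11 at 37.9 and 37.3 and then 23.1 and 35.2 CPM. PCDHA11 was the only one of the 3 with a lower mean at D12, and the smallest of their adjusted p-values was that of PCDHA6, 0.143.

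In TMG-treated cells 10 genes were higher and 1 lower for D12 against D0 (7.24% and 9.19% of all genes). The 10 were PCDHB9 to PCDHB14, PCDHGB6, PCDHGB7, PCDHGC3 and PCDHGC5, all among the 15 of the control cells, and the gene that fell was PCDHGA5. The median log2 fold change over beta genes was 1.12, against 1.35 in control cells. The D12 against D0 change was higher in TMG than in control for 53.3% of alpha, 13.3% of beta and 14.3% of gamma genes, beside 52.2% of all genes. No member passed the test of that difference. For the fits without 1 library that follow, no share of all genes is given. The count of risen genes was 4 without either D0 TMG library, 7 without replicate 1 and 5 without replicate 2 of TMG at D12, and in each case 0 fell. Over the mean of both arms 20 genes rose (13 beta, 7 gamma) and 4 gamma genes fell (PCDHGB1, PCDHGA5, PCDHGA6, PCDHGA7), beside 16.6% and 18.8% of all genes. With 1 library left out the risen genes numbered 15 to 19 and the fallen ones 0 to 3, with 0 without either replicate 1 of D0 and without either replicate 1 of D12.

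Between D12 and D30 in control cells 0 members passed in either direction (1.91% of all genes rose and 1.69% fell). At an unadjusted p under 0.05 there were 5 higher and 6 lower, beside 9.88% and 10.6% of all genes, and DESeq2 called 1 and 2, beside 6.88% and 5.06%, so each of these counts is near or below the share of all genes. The values leaned in different directions by cluster. Of the 15 beta genes 14 were higher at D30, with a median log2 difference of 0.50, and of the alpha genes 14 of 15 and of the gamma genes 20 of 21 were lower, with medians of -0.52 and -0.73, while 47.5% of all genes were higher. PCDHGC3 went from 77.0 and 103 CPM at D12 to 60.5 and 65.5 CPM at D30 (log2 difference -0.51, SE 0.20, adjusted p = 0.184), and PCDHB10 from 21.8 and 29.6 to 41.8 and 42.6 CPM. Over the mean of both arms 3 beta genes rose (PCDHB9, PCDHB10, PCDHB11) and 6 genes fell (PCDHA2, PCDHGA2, PCDHGB3, PCDHGB7, PCDHGA12, PCDHGC3), beside 6% and 5.72% of all genes. Those counts fell to 1 and 3 without replicate 2 of TMG at D30, the library high in mesenchymal markers, to 0 and 3 without replicate 2 of the D30 control, to 0 and 2 without replicate 1 of the D12 control, and to 0 and 0 without any 1 of the other 5 libraries.

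Between D30 and D70 in control cells 0 members passed again (0.305% of all genes rose and 0.0784% fell), with 1 higher and 7 lower at an unadjusted p under 0.05 (10.8% and 7.58% of all genes) and 1 and 2 in DESeq2 (5.30% and 3.04%). PCDHAC2 had the largest value, at 6.95 and 6.93 CPM at D30 against 12.02 and 42.65 CPM at D70 (log2 difference 1.98, SE 0.51, adjusted p = 0.0978). Its D70 libraries differ 3.55-fold from each other, and without replicate 1 of the D70 control, where its log2 difference was 2.61 (adjusted p = 0.0185), it was the 1 member called. Without replicate 2, high in mesenchymal markers, its log2 difference was 0.76 (adjusted p = 0.382), and 0 members were called there or without either D30 control.

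From D0 to D70 in control cells 12 genes rose and 4 fell, beside 15% and 14.7% of all genes. With only the control libraries of these 2 stages in the fit it was 7 and 1. In DESeq2 7 fell, and with the replicate block 12 rose and 8 fell. The share of all genes is not given for these alternatives or for the fits without 1 library below. The 12 risen genes of the main fit were 9 of 15 beta genes (PCDHB2, PCDHB3 and PCDHB9 to PCDHB15), PCDHGB6 and PCDHGC3 of the gamma cluster, and PCDHA6. Those that fell were PCDHGB1, PCDHGA5, PCDHGA6 and PCDHGA7, all in the first part of the gamma cluster. Leaving out replicate 2 of the D70 control, high in mesenchymal markers, gave 12 and 8, leaving out replicate 1 gave 13 and 3, and leaving out 1 of the D0 controls gave 8 or 9 and 4. In TMG-treated cells 10 rose and 5 fell (14.9% and 14.1% of all genes), and without replicate 2 of TMG at D70, the other library high in mesenchymal markers, it was 12 and 5. It was 7 and 3 without replicate 1 of TMG at D70 and 6 or 7 and 3 without 1 of the D0 TMG libraries. Over the mean of both arms 18 rose and 7 fell (25.2% and 23.3% of all genes), with 11 to 18 and 7 to 8 when 1 library was left out. All 15 beta genes had higher means at D70 than at D0 in control cells, with a median log2 difference of 1.37, while the alpha median was 0.02 and the gamma median -0.39.

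PCDHB10 was again the beta gene with the largest rise, at 40.8 and 24.7 CPM at D70 against 5.75 and 5.53 CPM at D0 (log2 fold change 2.54, SE 0.33, adjusted p = 0.000445). PCDHB11 stood at 14.5 and 12.1 CPM at D70 against 2.78 and 3.99 CPM (1.98, SE 0.26, adjusted p = 0.000458). PCDHB9 stood at 22.3 and 21.5 CPM against 5.50 and 5.81 CPM (1.95, SE 0.21, adjusted p = 0.00018). The D70 libraries of PCDHB9 and PCDHB11 were close to each other although their marker levels differed. Without replicate 2 of the D70 control the log2 fold changes of PCDHB10, PCDHB11 and PCDHB9 were 2.86, 2.11 and 1.99, and without replicate 1 they were 2.13, 1.83 and 1.92, and each of the 3 was called in both fits.

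PCDHGB6 rose from 35.8 and 40.8 CPM at D0 to 345 and 139 CPM at D70 (log2 fold change 2.66, SE 0.49, adjusted p = 0.00301). The fold rests in part on replicate 1: without it the log2 fold change was 1.86 (adjusted p = 0.0199), below that of PCDHB10, and without replicate 2, high in mesenchymal markers, it was 3.18 (adjusted p = 0.00135). PCDHA6 stood at 60.4 and 31.4 CPM at D70 against 17.7 and 18.5 CPM at D0 (1.35, SE 0.33, adjusted p = 0.0115), a call lost without replicate 1 of the D70 control or without either D0 control (adjusted p from 0.0645 to 0.108) and kept without replicate 2 (1.75, adjusted p = 0.00339). PCDHGA5 fell from 5.62 and 6.02 CPM to 0.836 and 1.61 CPM (-2.25, SE 0.47, adjusted p = 0.00525). PCDHGA7 fell from 5.07 and 4.69 CPM to 0.643 and 1.45 CPM (-2.23, SE 0.45, adjusted p = 0.00478). Without replicate 2 of the D70 control PCDHGA5 was at -2.78 and PCDHGA7 at -2.90, and without replicate 1 they were at -1.85 and -1.75, called in both fits. In a fit of only the control libraries of these 2 stages PCDHA6, PCDHGA5 and PCDHGA7 missed the threshold, with adjusted p-values of 0.0681, 0.0579 and 0.0687.

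**Figure D3:**
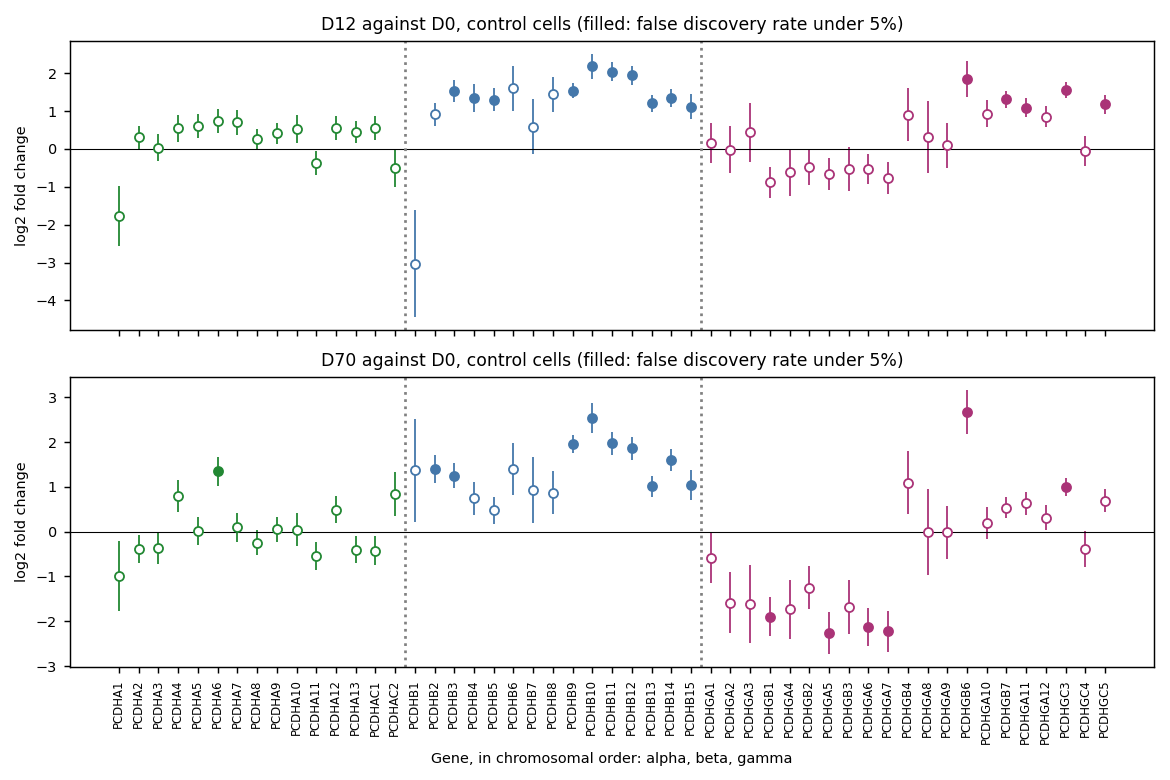
Log2 fold change (points, with bars of 1 standard error) of each gene in control cells, D12 against D0 (upper panel) and D70 against D0 (lower panel), in chromosomal order with dotted lines between clusters; filled points passed a false discovery rate of 5%. Beta genes lie above 0 except PCDHB1 in the upper panel, and in the lower panel the 10 genes from PCDHGA1 to PCDHGA7 all lie below 0 while PCDHGB6 lies at 2.66.

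Within the gamma cluster the direction of change differed with position along the chromosome. These stretches were set after their values had been seen, so they are described with no test. The 10 genes from PCDHGA1 to PCDHGA7 summed to 48.75 and 54.1 CPM in control cells at D0, 31.2 and 38.6 at D12, 17.3 and 28.1 at D30, and 9.06 and 22.05 at D70. In TMG-treated cells they summed to 57.3 and 58.1, 24.2 and 33.7, 11.75 and 18.8, and 12.5 and 21.0 CPM. All 10 had lower means at D70 than at D0 in each arm, with a median log2 difference of -1.70 in control and -1.61 in TMG-treated cells. As a share of gamma counts they went from 19.7% to 20.8% in the 4 libraries of D0 to 1.63% and 5.20% in control and 2.12% and 5.02% in TMG at D70. Each D70 library lay below each D0 library in both measures.

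The next 8 genes, PCDHGB4 to PCDHGA12, which lie between PCDHGA7 and the C-type genes, summed to 141 and 143 CPM at D0, 289.9 and 390.0 at D12, 263.5 and 284 at D30, and 440.4 and 328 at D70 in control cells. All 8 had higher means at D12 than at D0 in control cells, and 3 were called. By D70 the rise rested on a few of them, and PCDHGB6 was the only one called. Of the 8, 2 had fitted log2 fold changes below 0 (the lowest -0.01), and the median was 0.42. The 3 C-type gamma genes took 23.45% to 24.35% of gamma counts in the libraries of D0 and 16.2% to 19.1% in those of D70, with no overlap. In control cells their summed level did not fall with that share. It was 58.02 and 63.37 CPM at D0, 116.9 and 138.8 at D12, 80.45 and 90.08 at D30, and 106.2 and 73.56 at D70, each later library above those of D0. In TMG-treated cells it was 67.38 and 69.4 CPM at D0 and 98.45 and 67.7 CPM at D70, so the libraries of these stages overlapped. In control cells the rank correlation between order and log2 fold change across the 21 gamma genes was 0.60 for D12 against D0 and 0.67 for D70 against D0; it was 0.06 and 0.12 across the 15 alpha genes and 0.30 and 0.29 across the 15 beta genes. In TMG-treated cells it was 0.57 and 0.62 across gamma, 0.16 and 0.20 across alpha and 0.47 and 0.43 across beta genes. Genes of a cluster share reads and libraries, so these are descriptions.

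The gamma cluster became dominated by PCDHGB6. Its share of gamma counts was 14.5% and 15.67% in the D0 controls, 24.2% and 29.7% at D12, 41.5% and 38.4% at D30, and 62.1% and 32.9% at D70. In TMG-treated cells it was 14.0% and 15.2%, 28.3% and 30.4%, 47.15% and 45.8%, and 63.75% and 34.0%. Expressed as the effective number of genes (the inverse Simpson index, which equals the number of genes when all are used equally), the gamma cluster went from 11.86 to 11.96 at D0 to 2.35 to 6.23 at D70. The alpha cluster stayed between 7.52 and 11.9 at every stage and the beta cluster between 4.30 and 7.13. In the beta cluster PCDHB2 took 29.7% to 44.8% of counts throughout. In the alpha cluster PCDHA11 led at D0 with 16.8% to 18.3%, and PCDHA6 led in the D70 replicate 1 libraries with 23.95% and 22.8%. The same shares per kilobase of coding sequence gave a top share of 63.85% at most for gamma at D70.

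**Figure D4:**
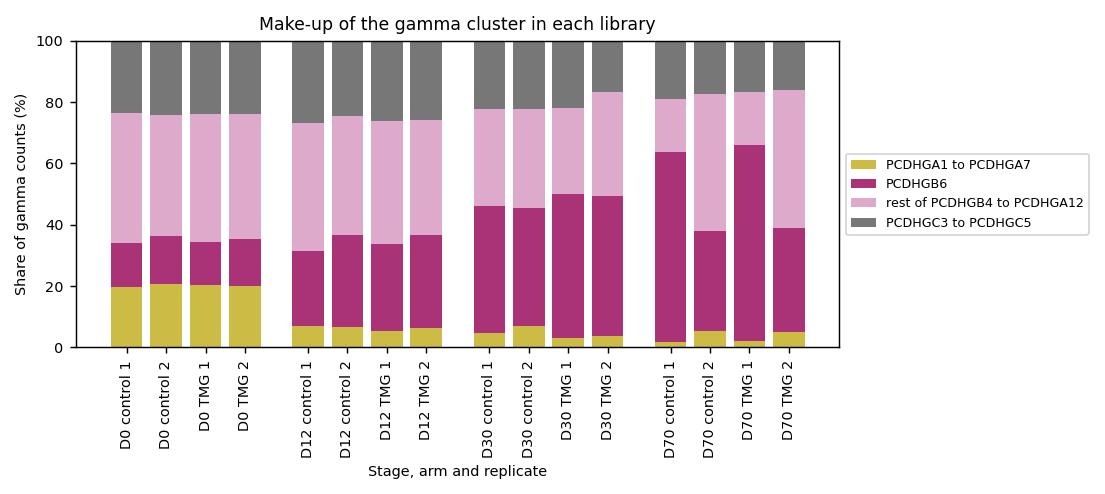
Share of gamma cluster counts (%, stacked bars) taken by PCDHGA1 to PCDHGA7, by PCDHGB6, by the rest of PCDHGB4 to PCDHGA12 and by the C-type genes PCDHGC3 to PCDHGC5 in each library. PCDHGB6 grows from 14.0% to 15.67% at D0 to above 60% in the replicate 1 libraries of D70, where it is 62.1% and 63.75%, but stands at 32.9% and 34.0% in the replicate 2 libraries, below those of D30, and the PCDHGA1 to PCDHGA7 part shrinks from 19.7% to 20.8% at D0 to between 1.63% and 5.20% at D70.

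The D70 libraries differed by replicate in the same way in each arm, along with the marker sums given above. Replicate 1 was higher than replicate 2 in both arms for 19 of 51 genes (10 of them beta), and replicate 2 was higher in both arms for 27 (17 of them gamma). No share of all genes is given for the counts in this paragraph. Over all genes tested, the replicate differences of the 2 arms correlated by 0.607 at D70, so a split by replicate was not confined to these genes. More than 2-fold in both arms, replicate 1 was higher for PCDHGB6, PCDHGC4, PCDHB1, PCDHB6 and PCDHB7, and replicate 2 for PCDHAC2, PCDHGB4, PCDHGA8 and PCDHGA9, on the log2(CPM + 0.5) scale. PCDHGB4 and PCDHGA8 each share 4443 exonic bases with other gamma genes, more than the 2177 common to all. Reads of these parts cannot be assigned to 1 gene, so the 2 are not separate cases. PCDHGB6 was at 345 and 139 CPM in control and 376 and 142 CPM in TMG. PCDHAC2 was at 12.02 and 42.65 CPM in control and 15.01 and 34.1 CPM in TMG. PCDHGB4 was at 11.7 and 41.0 CPM in control and 10.8 and 37.7 CPM in TMG. PCDHGB4 was also high in replicate 2 of TMG at D30, at 40.0 CPM against 13.7 CPM in replicate 1, while PCDHAC2 there was at 14.7 CPM against 11.85 CPM. This split also runs along the separate treatment label that disagrees with the titles, and which of the labels holds was not tested. The part of the mesenchymal or neuronal markers in these differences was not tested.

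The second question is whether TMG changed these genes. It changed 0 of the 51 at a false discovery rate of 5% at D0, D12, D30 or D70 in edgeR, as it did 0% of all 24249 genes, and DESeq2 called 0 members at each stage, beside 0.0116%, 0.0514%, 3% and 0.218% of the genes it tested. At an unadjusted p under 0.05 there was 1 member at D0, 0 at D12, 1 at D30 and 0 at D70, beside 1.26%, 2.48%, 12% and 5.49% of all genes. The median standard error of a member's log2 fold change was 0.36 at D0, 0.35 at D12, 0.36 at D30 and 0.36 at D70. Changes of a modest size in a single gene could therefore not be seen in this fit with 2 libraries a group. The spread of a gene is estimated over all 8 groups, so differences between D70 libraries also enter the standard errors of other stages. PCDHGA8 was at 4.94 and 4.69 CPM in control and 5.49 and 5.36 CPM in TMG at D0, with a standard error of 0.96. At D70 its libraries ran from 0.643 to 9.01 CPM. No member passed in the test of whether the TMG effect differed between successive stages. Of all genes 0% passed it. At an unadjusted p under 0.05 that test gave 0 members for D12 against D0, 0 for D30 against D12 and 1 of 51 for D70 against D30, beside 1.07%, 3.41% and 4.03% of all genes. The 1 was PCDHGA2 (log2 difference of effects 2.37, SE 1.03, adjusted p = 1), and 1 of 51 is below the share of all genes.

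At D0 the exception at an unadjusted p was PCDHB8, at 0.803 and 0.699 CPM in control and 1.65 and 1.65 CPM in TMG (log2 difference 1.12, SE 0.48, adjusted p = 1 in edgeR). At D30 it was PCDHGA7, at 2.16 and 3.16 CPM in control and 1.07 and 1.51 CPM in TMG (-1.05, SE 0.45, adjusted p = 0.391). The libraries of the arms did not overlap for either gene. The next 4 genes at D30 by p were PCDHAC2 at 6.95 and 6.93 CPM in control and 11.85 and 14.7 CPM in TMG (0.93, SE 0.50, adjusted p = 0.49), PCDHGA2, PCDHGB3 and PCDHB14. PCDHGB3 stood at 1.32 and 2.56 CPM in control and 0.583 and 1.33 CPM in TMG, and PCDHB14 at 24.3 and 20.6 CPM in control and 18.9 and 15.7 CPM in TMG. PCDHGA2 was low, at 0.282 and 1.05 CPM in control and 0.194 and 0.379 CPM in TMG, and its direction turned without replicate 2 of the D30 control. At D30 all 10 genes from PCDHGA1 to PCDHGA7 had lower means in TMG (median log2 difference -0.57), and at D12 8 of the 10 did (median -0.31), while 50.81% and 50.33% of all genes had higher means. Their summed levels, given above, overlapped between the arms at both stages, and the stretch was set after its values were seen. At both stages the TMG sum was the lower within each replicate number, numbers that the labels tie to no shared culture. At D0 and D70 7 and 6 of the 10 had higher means in TMG. Without replicate 2 of TMG at D30 the log2 differences were 0.77 for PCDHAC2, -1.32 for PCDHGA7, -1.82 for PCDHGA2, -1.74 for PCDHGB3 and -0.24 for PCDHB14, each with an adjusted p of 1.

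Counted by libraries that do not overlap, both TMG libraries lay above both controls for 20 of 51 members at D0 (11 of them gamma), 3 at D12, 7 at D30 and 1 at D70, beside 19.7%, 17.8%, 23.1% and 9.77% of all genes. They lay below both controls for 3 members at D0, 13 at D12 (7 of them beta), 11 at D30 and 2 at D70, beside 16.9%, 16.5%, 21.0% and 12.4% of all genes. The sums per cluster moved little. Alpha sums were 228 and 219 CPM in TMG against 207 and 215 in control at D0, 240.2 and 252 against 218.5 and 208 at D30, and 282 and 272 against 252 and 245 at D70, that is, 1.06, 1.15 and 1.12 times the control mean with no overlap. The log2 ratio of alpha depended on the scaling: with library totals alone it was 0.18 at D0, against 0.08, and 0.06 at D70, against 0.16. At D12 they overlapped, at 249 and 307 against 232 and 295 CPM. Within each replicate number the TMG sum was the higher, but the labels tie the numbers to no shared culture. Beta sums were 247 and 233 CPM in TMG against 281 and 281.5 in control at D12, 0.853 times the control mean, and overlapped at the other stages. Gamma sums were 282 and 289 CPM in TMG against 247 and 260.3 at D0, 1.12 times the control mean (log2 ratio 0.17, and 0.27 with library totals alone), and overlapped at the other stages. Without replicate 2 of TMG at D30 the log2 ratio of TMG to control at that stage was 0.17 for alpha, 0.03 for beta and 0.03 for gamma, against 0.21, -0.01 and 0.24 with it. PCDHGB6 itself was at 39.6 and 44, 131 and 161, 183 and 234, and 376 and 142 CPM in TMG at D0, D12, D30 and D70, against 35.8 and 40.8, 106 and 169, 149.8 and 154.5, and 345 and 139 CPM in control. Its TMG libraries lay above the controls at D30 (log2 difference 0.46, SE 0.46, adjusted p = 0.756) and the arms overlapped at the other stages.

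**Figure D5:**
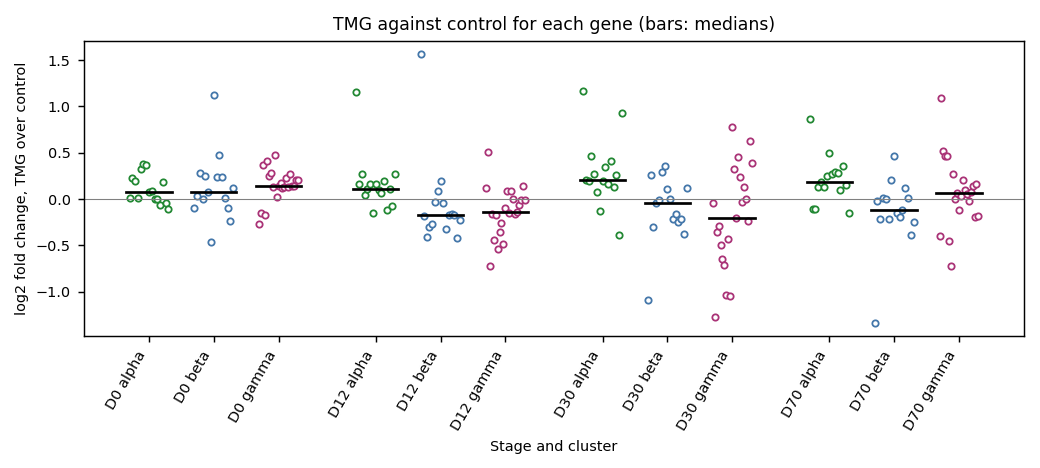
Log2 fold change of TMG over control for each gene (open points) by stage and cluster, with bars at the medians. No gene passed a false discovery rate of 5%; the alpha medians lie at 0.08, 0.11, 0.20 and 0.18 at D0, D12, D30 and D70 and the gamma median at D30 at -0.21.

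Genes that act on the locus or with its proteins were followed as lists. Of 12 genes of CTCF and cohesin, 0 rose and 1 fell between D0 and D12 in control cells (SMC1A, a core cohesin subunit, log2 fold change -0.69), and 0 rose and 4 fell by D70, among them CTCF itself (-0.64), SMC1A (-1.08) and SMC3 (-0.99), with a list median of -0.29. Over all genes tested 6.97% rose and 9.71% fell by D12, and 15% rose and 14.7% fell by D70, so 1 of 12 is near the share of all genes. The same shares apply to the lists that follow. CTCF stood at 82.5 and 82.2 CPM at D0 and 50.5 and 55.3 CPM at D70 in control cells. Of 14 genes that silence the locus or set DNA methylation, 1 rose and 3 fell by D12 and 1 rose and 8 fell by D70 (list median -0.80, against 0.03 over all genes tested). DNMT3B, the DNA methyltransferase that lays down methylation on these promoters in early embryos, went from 1034 and 787 CPM at D0 to 35.2 and 39.2 at D12 and 6.04 and 14.0 at D70 (log2 fold change -4.61 at D12, SE 0.42, adjusted p = 0.000264). TET2, a dioxygenase that acts in demethylation, was the gene that rose, from 21.8 and 25.2 CPM at D0 to 67.4 and 72.2 CPM at D12. SMCHD1, a repressor of the locus, stood at 134 and 140.4 CPM at D0 and 135 and 154 CPM at D70 and was not called.

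Of 10 tested protocadherins outside the clusters, 2 rose and 1 fell at each of D12 and D70: PCDH7 and PCDH9 rose by 3.72 and 2.70 on the log2 scale by D12, and PCDH1 fell by 2.99. At D70 these counts are near the shares of all genes. Of 13 tested genes that flank the clusters on chromosome 5, 0 rose and 3 fell by D12 (DIAPH1, RELL2, ARAP3) and 0 rose and 4 fell by D70, with list medians of -0.11 and -0.25. TMG changed 0 genes of these 4 lists at any stage at a false discovery rate of 5%, with at most 3 genes of a list at an unadjusted p under 0.05, which was 3 of the 14 silencing and methylation genes at D30, where 12% of all genes passed at that p.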

How the data were processed

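Ribosomal-depleted total RNA libraries of H9 cells (16, in 8 groups of 2) were analysed. The authors aligned reads to hg19 with Bowtie2 and deposited expected counts (estimated counts per gene) from RSEM 1.2.12 with the Ensembl annotation of GRCh37, as whole numbers. RSEM divides reads of shared exons between genes by likelihood, so members of the alpha and gamma clusters, and close beta copies, share counting error. The libraries are not resolved by strand.

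The deposited counts were fitted in edgeR 4.0.16 (R 4.3.3, limma 3.58.1) by quasi-likelihood with robust dispersions, TMM normalization and 8 groups (8 residual degrees of freedom). Genes passed filterByExpr with a minimum count of 10 and a minimum total of 15, which left 24249 of 57736 genes. P-values were adjusted by Benjamini-Hochberg over all of them and called at 5%. All tests were two-sided. CPM were computed on TMM library sizes, and ratios of replicates used a pseudocount of 0.5 CPM. Sums over a cluster carry no test. DESeq2 1.42.0, library totals alone, no filter on low counts, only the groups compared, a replicate block, leaving out each library and leaving out the most abundant member were tried as alternatives. The fits were tested on simulated data. Tables were handled in Python 3.11.15 with numpy 2.4.6, pandas 2.3.3 and scipy 1.17.1.

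The rule for members is by symbol, and members and lists were chosen with earlier results of these data known. Genes named with values were the 3 most abundant of each cluster, the C-type genes, the 3 largest changes per cluster and comparison among those called, and the 5 smallest p-values for TMG on D30; others are named as chosen after their values were seen. The study calls the 2 libraries of a group biological replicates, and p-values rest on the spread between them, estimated for each gene over the 8 groups together. Library totals set the precision, with a median of 104 to 283 counts a member. Protein sequences were not used here. One gene of a list of binding partners is not reported here, and that list is left out with it.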

Additional observations from a re-analysis of the deposited data

How the results depend on the processing

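With library totals alone the log2 ratio of the sums moved for alpha TMG against control at D0 (0.08 to 0.18) and D70 (0.16 to 0.06005), alpha D70 against D30 (0.22 to 0.15) and D70 against D0 (0.24 to 0.18), beta D12 against D0 (1.29 to 1.48) and D30 against D12 (0.40 to 0.25), and gamma TMG against control at D0 (0.17 to 0.27). Without the member with most counts, alpha D70 against D0 was 0.07185, beta D12 against D0 1.501 and gamma D70 against D0 0.20. Members at an unadjusted p under 0.05 for TMG numbered 1 at D0 and 1 at D30, against 0 called. Between D0 and D12 the members called lower were 1 in TMG-treated cells, 4 over the mean of both arms and 2 with only the groups compared. Between D12 and D30 they were 3 higher and 6 lower over the mean of both arms, 1 and 2 in DESeq2 and 1 and 3 with only the groups compared. Between D30 and D70 they were 1 higher and 2 lower in DESeq2 and 1 lower over the mean of both arms. That last count was 5 without replicate 1 of TMG at D70, all beta genes, 1 without replicate 2 of TMG at D30 and 0 without any 1 of the other 6 libraries. Between D0 and D70, 7 rose with only the groups compared, and the members called lower were 7 over the mean, 7 in DESeq2, 8 with the replicate block and 1 with only the groups compared. No share of all genes is given for D0 to D70 in DESeq2 or for the replicate block. The same holds for every fit of only the groups compared, for the mean of both arms between D30 and D70, and for fits without 1 library. Those counts can therefore not be set against a general rate.

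Leaving out 1 library gave 8 to 10 members higher at D12 against D0, 0 to 1 at D70 against D30 and 8 to 13 at D70 against D0, where 3 to 8 were lower. PCDHGA2 at D30 (TMG against control -1.27) ranged from -1.852 to 0.02781, turning without replicate 2 of the control. The cause was not tested. Same-numbered libraries correlated between arms by 0.0453 at D0, 0.367 at D12, 0.223 at D30 and 0.607 at D70, which is over 0.1 at D12, D30 and D70 but not at D0. The labels name no shared culture or day, so the numbers were not used as pairs. With the replicate block 16 members rose by D12, 12 by D70 and 0 were called for TMG. The share of all genes called in that fit is not given. Depth limits low genes such as PCDHB1 and PCDHGA2.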

Other observations

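Pseudogenes of the clusters, which are not counted among the 51 genes, also had counts. PCDHGB8P ranged over the 16 libraries from 7.78 to 19.7 CPM, PCDHB17P from 1.24 to 9.42 CPM, PCDHB18P from 1.65 to 7.05 CPM, PCDHB19P from 0.699 to 5.63 CPM and PCDHA14 from 0 to 6.84 CPM. In control cells PCDHB18P stood at 2.10 and 2.31 CPM at D0, 4.96 and 3.56 at D12, 7.05 and 6.62 at D30 and 4.63 and 3.62 at D70, so each library after D0 lay above those of D0. Their sequences are close to those of coding members, and reads may be divided between them.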
